A study of Drosophila melanogaster with 12 samples.

Results

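The mitochondrial ribosomal protein genes are described here in heads of male Drosophila melanogaster from populations selected for aggression and from their neutral counterparts. Members are probe sets that the array annotation assigns to a single gene whose symbol begins with mRpL or mRpS and a number, with no filter on signal. This gave 66 of 13966 probe sets that are not controls. They measure 64 genes, with 45 probe sets (43 genes) for the large subunit and 21 probe sets (21 genes) for the small subunit. By the RefSeq gene table the genes are spread over the arms X (10), 2L (10), 2R (10), 3L (16) and 3R (18). That table holds 73 symbols of this form. Of the 9 without a probe set of their own, mRpS10 shares one with another gene, and the others (mRpL27, mRpL34, mRpL37, mRpL53, mRpS5, mRpS14, mRpS21 and mRpS23) were not analysed here.

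Mitochondria carry their own ribosome, which translates the few messages of the mitochondrial genome into core subunits of the respiratory chain and the ATP synthase. All of its proteins are encoded in the nucleus, made in the cytosol and imported. Some descend from bacterial ribosomal proteins, and others are found only in mitochondria. The large subunit forms the peptide bond and passes the chain through an exit tunnel to the inner membrane, while the small subunit reads the messenger RNA. In Drosophila, mutants of tko, which encodes a protein of the small subunit, are sensitive to mechanical shock.

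Heads came from 5-day-old males of the Canton-S strain, a laboratory wild type, at generation 21. The aggressive I and aggressive II populations had been selected for male fighting. The neutral I and neutral II populations drew their males at random once the fighters had been taken out, a scheme the series describes as selection for a decrease with no significant effect. Each of the 4 populations gave 3 single-colour Affymetrix arrays (12 in all), from males frozen in groups of about 120 and stored in groups of about 40. A regime is represented by only 2 populations, so drift within a population and the effect of its regime are hard to separate. Arrays 1 and 2 of neutral I carry the strain label Canton-S without the word selected, which stands on the other 10 arrays, while their treatment text is that of the other neutral arrays. What this difference in labels means was not tested. No label ties an array to its own culture, and p-values that rest on arrays may therefore measure technical spread.

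All values are MAS5 signal, a linear intensity that had been scaled to a trimmed mean of 2500 on every array, so differences in total RNA are not measured. Array medians lay between 962.5 and 1050. Photoreceptor markers, which define the eye-bearing head (5 of 8 listed genes measured), were bright, with a summed intensity of 456768 to 536340 on aggressive arrays and 411759 to 501617 on neutral arrays. Testis markers (4 of 4 genes) summed to 1215 to 2381 on aggressive arrays and 1361 to 2932 on neutral arrays. In a whole head, fewer cells of a type and less RNA per cell cannot be told apart.

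Between aggressive and neutral heads, 0 of the 66 member probe sets differed (limma with population as a random block, adjusted over 13966 probe sets), where 0.0716% of all probe sets did. The smallest adjusted p among the members was 0.539. At an unadjusted p under 0.05 there were 6 members, all higher in aggressive heads, or 9.09%, beside 6.62% of all probe sets in either direction. For 0 members did the 6 aggressive arrays all lie on one side of the 6 neutral arrays, a separation that 0.831% of all probe sets showed. Both aggressive means were above both neutral means for 17 of the 66 members, beside 17.9% of all probe sets. They were below both neutral means for 6 of the 66, beside 15.1% of all.

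Median log2 differences of both subunits were close to 0. For aggressive minus neutral the median was 0.026 for the large subunit (28 of 45 above 0) and 0.056 for the small subunit (14 of 21 above 0), beside 0.014 over all probe sets, of which 53.1% were above 0. Differences below 0.1 in size were found for 33 of the 66. The 95% interval lay within 0.25 of 0 on the log2 scale for 5 members, within 0.5 for 46 and within 1 for 62. A log2 difference of 1 in either direction was thus outside the interval of most members. Most intervals reached past 0.25 on at least 1 side. The correlation of arrays within a population was fitted at 0.011, so these intervals rest mainly on the spread between arrays. They may be too narrow for regimes of 2 populations each. The standard error of a member's difference ran from 0.082 to 0.44, with a median of 0.13, beside 0.17 over all probe sets. Over probe sets above the 40th percentile of mean intensity, where 65 of the members lie, the median standard error was 0.14. The median log2 difference between regimes of those probe sets was 0.0066.

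**Figure D1:**
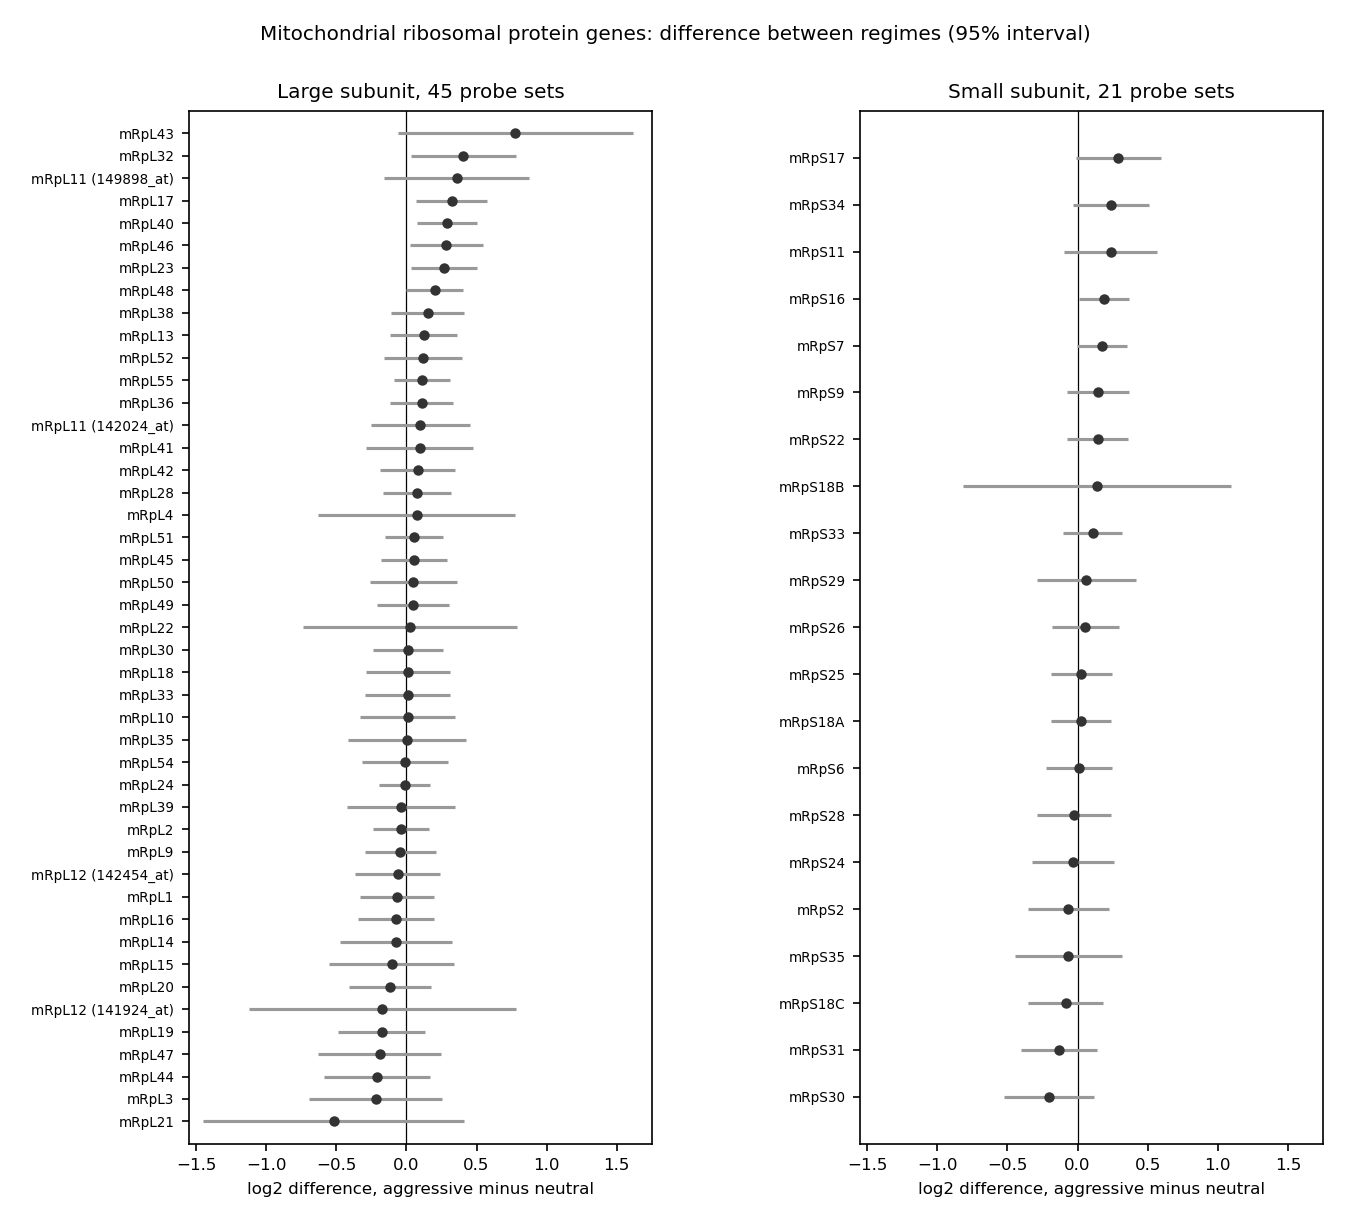
Log2 difference between regimes (x axis, aggressive minus neutral) for each of the 45 large subunit and 21 small subunit probe sets, ordered by size, with points for the estimate and bars for the 95% interval. The bars of 60 probe sets cross 0, and those of mRpL43, mRpL21, mRpS18B and 1 probe set of mRpL12 are the widest.

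The large subunit proteins of the central protuberance, the crest of the subunit where it meets the small subunit and the transfer RNAs, had 6 of 6 probe sets above 0. Of all probe sets 53.1% were above 0. The median log2 difference of the 6 was 0.18, and 0 of 6 passed the test. By pair, the median was 0.32 for aggressive I minus neutral I (6 of 6 above 0) and 0.22 for aggressive I minus neutral II (6 of 6). For aggressive II it was 0.14 minus neutral I (5 of 6) and 0.075 minus neutral II (4 of 6). Aggressive I minus aggressive II gave 0.17 (5 of 6). The smallest p between regimes among the 6 was that of mRpL40, a mitochondria-specific protein of the crest in the mammalian structure. Its intensity was 3596, 3720.1 and 3282 in aggressive I and 3042, 2975 and 3657 in aggressive II, against 2920.1, 2689.7 and 2513 in neutral I and 2679, 2663 and 3237 in neutral II. A single neutral array, neutral II array 3, reached into the aggressive range. mRpL40 thus had a log2 difference of 0.29 and a ratio of 1.22 (SE 0.099 on the log2 scale, limma adjusted p = 0.539).

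mRpL46, another protein of the crest, had intensities of 2084, 2871 and 2383 in aggressive I and 2443, 2403 and 2522 in aggressive II, against 1839, 2518 and 1675 in neutral I and 1922, 1939 and 2284 in neutral II. Neutral I array 2 stood above all but 2 of the aggressive arrays. The log2 difference of mRpL46 was 0.29 (SE 0.12, adjusted p = 0.707). mRpL48, also of the crest, had intensities of 2300.4 to 2816 on aggressive arrays (median 2454) and 1968 to 2393 on neutral arrays (median 2225). Its difference was 0.20 (SE 0.094, adjusted p = 0.75), with all but 1 of the neutral arrays, neutral II array 2, below every aggressive array. mRpL38, mRpL52 and mRpL18 completed the set with log2 differences of 0.15, 0.12 and 0.011.

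Around the exit of the polypeptide tunnel, where the new chain leaves towards the inner membrane, 5 of 7 probe sets were above 0 (median log2 difference 0.052), and 0 passed. mRpL17, counterpart of a bacterial protein at the rim of the exit, had intensities of 4659, 6238 and 4865 in aggressive I and 5081, 4277 and 4400.1 in aggressive II, against 3749, 3699.7 and 3515 in neutral I and 4406, 4069.8 and 4237 in neutral II. The neutral I arrays were the lowest 3 of the 12, and neutral II overlapped with aggressive II. Its log2 difference was 0.32 (SE 0.12, adjusted p = 0.574), a ratio of 1.25.

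mRpL23, whose bacterial counterpart is the docking site for factors that receive the nascent chain, had intensities of 7062, 8269 and 7489.9 in aggressive I and 6626, 5592 and 7207 in aggressive II, against 5870.0, 5266 and 6384 in neutral I and 5520.0, 5860.4 and 6345 in neutral II. All but 1 of the aggressive arrays, aggressive II array 2, were above every neutral array. Its difference was 0.27 (SE 0.11, adjusted p = 0.671). mRpL32, which yeast and mouse mature through the m-AAA protease before it joins the ribosome, had intensities of 1129, 1189 and 1138 in aggressive I and 1364, 850.4 and 1224 in aggressive II, against 527.3, 1131 and 975.3 in neutral I and 707.1, 892.8 and 986.4 in neutral II. Neutral I array 2 was level with aggressive I array 1, and aggressive II array 2 lay among the neutral arrays. The log2 difference of mRpL32, 0.41 (SE 0.17, adjusted p = 0.721), was the largest of the tunnel exit. mRpL22, mRpL24 and mRpL45 were at 0.026, -0.011 and 0.052, and mRpL47 at -0.19 (SE 0.20), so that the set did not run one way.

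Proteins around the peptidyl transferase centre, where the peptide bond is made, had 1 of 4 probe sets above 0 (median log2 difference -0.057). mRpL2 was at -0.041 (SE 0.091), mRpL16 at -0.074 (SE 0.12), mRpL3 at -0.22 (SE 0.22) and mRpL4 at 0.073 (SE 0.32). Each of these intervals includes 0.

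The flexible stalks, which bring in translation factors and release spent transfer RNA, were represented by 6 probe sets of 4 genes, with 3 above 0 and a median log2 difference of -0.027. mRpL12, the stalk protein that in mammals also binds the mitochondrial RNA polymerase, had 2 probe sets, with log2 differences of -0.17 (SE 0.44) and -0.062 (SE 0.14). Those of mRpL11, at the base of the factor-binding stalk, were at 0.36 (SE 0.24) and 0.10 (SE 0.16). Without neutral I array 3 the first of these was 0.12. Probe sets of the same gene ranked the 12 arrays differently, with r = 0.19 between those of mRpL12 and r = -0.24 between those of mRpL11, given as a description over arrays that share population and scaling. The brighter mRpL11 probe set read 743.6 on neutral I array 3 and between 1822 and 2421 on the other 11 arrays. The dimmer one read 1298 on that array, its second highest value. mRpL10, partner of mRpL12, and mRpL1, of the opposite stalk, were at 0.0079 and -0.064.

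The other 22 large subunit probe sets had a median log2 difference of 0.011, with 13 above 0, and ran from -0.52 for mRpL21 (SE 0.43) to 0.78 for mRpL43 (SE 0.39). The difference of mRpL43 was 0.46 without neutral II array 1, 0.042 without the neutral II population and 1.51 without neutral I. Large subunit proteins counted as bacterial type (30 probe sets) had a median of 0.0063 with 16 above 0, and mitochondria-specific ones (15 probe sets) a median of 0.081 with 12 above 0. The rule behind these classes put mRpL55 with the bacterial type although its mammalian counterpart is classed as specific to mitochondria. Moving it gave medians of 0.0047 (29 probe sets) and 0.088 (16 probe sets). Among the mitochondria-specific proteins, mRpL44, which belongs to the ribonuclease III family, was at -0.21 (SE 0.17), and mRpL41, mRpL42, mRpL49, mRpL50, mRpL51 and mRpL54 were between -0.0078 and 0.094.

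In the small subunit, 14 of 21 probe sets were above 0 and 0 passed. mRpS16, counterpart of a bacterial protein needed to assemble the body of the subunit, had the smallest p of these. Its intensity was 8187, 8863 and 7706 in aggressive I and 8614, 8801 and 8339.7 in aggressive II, against 7555, 7576 and 7426 in neutral I and 8378, 7184 and 6766 in neutral II. Of the neutral arrays only neutral II array 1 lay inside the aggressive range. Its log2 difference was 0.19 (SE 0.082, adjusted p = 0.721).

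mRpS7, a protein of the head domain near the path of the messenger RNA, had intensities of 8754, 8601 and 9141 in aggressive I and 8987, 9097 and 8269.7 in aggressive II, against 7734, 7294 and 7592 in neutral I and 8316, 8309 and 8144 in neutral II. Aggressive II array 3 fell among the neutral II arrays, and the other 5 aggressive arrays were above all neutral arrays. The difference was 0.17 (SE 0.083, adjusted p = 0.756). mRpS17, which binds ribosomal RNA in its bacterial form, had intensities of 1567 to 2271 on aggressive arrays (median 2056) and 1280.3 to 2073 on neutral arrays (median 1657), ranges that overlapped widely. Its difference was 0.29 (SE 0.14, adjusted p = 0.76).

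Of the remaining small subunit proteins of bacterial type, mRpS11, on the platform, was at 0.24 (SE 0.15), and mRpS9, in the head, at 0.15 (SE 0.10). Intensities of mRpS11 ran from 4347 to 8142 within aggressive II alone, wider than the whole range of the neutral arrays, 4689.7 to 6033. The class of 12 had a median of 0.080 with 8 above 0, and the 9 mitochondria-specific proteins one of 0.056 with 6 above 0. mRpS29, a GTP-binding protein known as DAP3 in mammals, was at 0.062 (SE 0.16). Although named for the small subunit, mRpS18A and mRpS30 have mammalian counterparts that sit in the large one. mRpS18A was at 0.024 (SE 0.099), and mRpS30 at -0.20 (SE 0.15), the lowest of the 21. mRpS18B was the dimmest member and the only one not above the 40th percentile of mean intensity, with population means of 472.1 and 264.5 in aggressive I and aggressive II, against 377.2 and 445.1 in neutral I and neutral II. Its difference was 0.14 (SE 0.44).

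**Figure D2:**
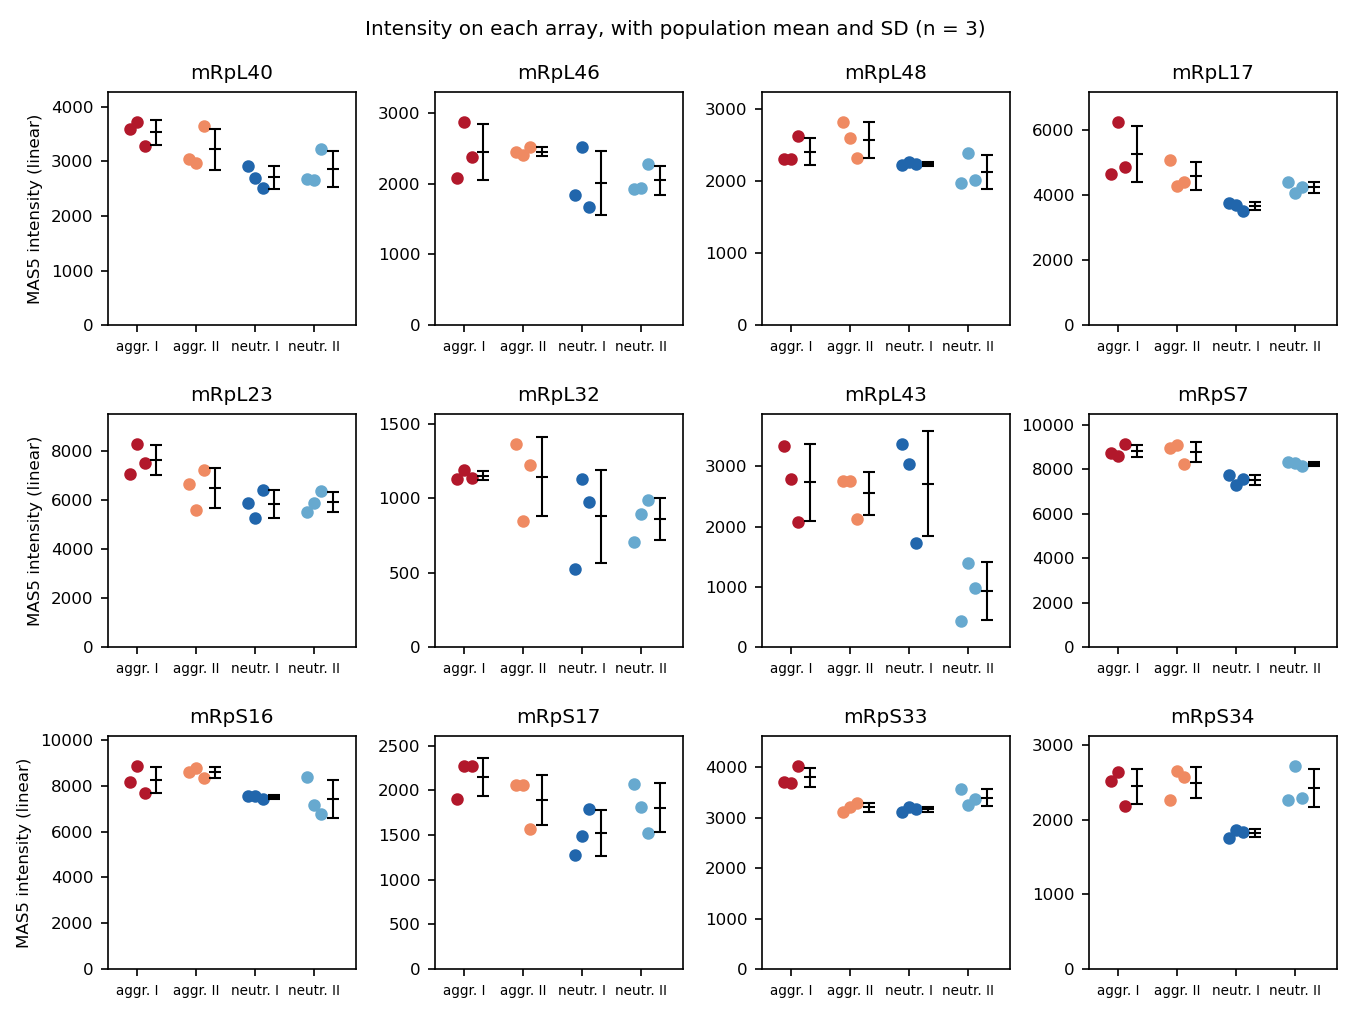
MAS5 intensity (y axis, linear, from 0) of 12 members on each array, by population, with a bar for the mean and SD of 3 arrays beside the points. These members were chosen for a small p between regimes or in the F test, so the panels are not typical of all members. mRpL40, mRpL23 and mRpS7 show aggressive points mostly above neutral ones, mRpS34 is lowest in neutral I and mRpL43 lowest in neutral II.

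Any difference among the 4 populations was tested with an F test on fixed population means. Of the members 0 passed, where 0.437% of all probe sets did, and 6 (9.09%) had an unadjusted p under 0.05, beside 9.79% of all. The smallest p was that of mRpL43 (F = 7.94, limma adjusted p = 0.248), a mitochondria-specific protein of the large subunit. Its intensity was 3339, 2797 and 2069 in aggressive I and 2757, 2765 and 2134 in aggressive II, against 3368, 3039 and 1727 in neutral I and 434.5, 1389 and 976.2 in neutral II. Every neutral II array was below the other 9 arrays. For aggressive I minus neutral II the log2 difference of mRpL43 was 1.58 (SE 0.38, adjusted p = 0.164), and for aggressive II minus neutral II it was 1.45 (adjusted p = 0.25). With a trended and robust variance the first of these passed (limma adjusted p = 0.0481), the only member call in any comparison under any setting tried. Between neutral I and neutral II, which share the regime, the difference was 1.47 (adjusted p = 0.404).

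mRpS34, a mitochondria-specific protein that mouse needs for a stable small subunit, was next (F = 6.44, adjusted p = 0.326). Its intensity was 2512, 2638 and 2177 in aggressive I and 2255, 2655 and 2569.8 in aggressive II, against 1756, 1853 and 1839.5 in neutral I and 2263, 2714 and 2291 in neutral II. Here neutral I was the population below the other 9 arrays. The log2 difference from neutral I was 0.47 for aggressive I (SE 0.13, adjusted p = 0.322) and 0.45 for aggressive II (adjusted p = 0.443), while neutral I minus neutral II was -0.44 (adjusted p = 0.5).

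mRpS33, a small mitochondria-specific protein, stood apart in aggressive I. Its intensity was 3702, 3683 and 4020.0 in aggressive I and 3119, 3207 and 3296 in aggressive II, against 3116, 3201 and 3171 in neutral I and 3570.4, 3243 and 3373 in neutral II. Aggressive I was above the other 9 arrays, including those of aggressive II (log2 difference 0.29, SE 0.10, adjusted p = 0.397). After centring, 6 members in all had 1 population apart from the other 9 arrays. mRpL23 and mRpS33 were above in aggressive I (2.18% of all probe sets), mRpL17, mRpS7 and mRpS34 below in neutral I (0.795% of all) and mRpL43 below in neutral II (0.766% of all). This pattern was sought after the values had been seen, and its share of 6 in 66 is to be read against 8.07% of all probe sets in any population and direction.

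The members' means were most often highest in aggressive I. That population had the highest of the 4 means for 41 of 66 members (27 of the large and 14 of the small subunit), beside 32% of all probe sets. Neutral I had the lowest mean for 25 of the 66, beside 27.2% of all probe sets, and aggressive II for 24, beside 26.1%. Measured from each probe set's mean over the 12 arrays, on the log2 scale, the large subunit median was 0.053, 0.11 and 0.16 in aggressive I and 0.040, -0.081 and -0.032 in aggressive II, against -0.097, 0.0074 and -0.063 in neutral I and 0.031, 0.049 and -0.042 in neutral II. The small subunit median was 0.10, 0.13 and 0.035 in aggressive I and -0.0023, -0.089 and -0.069 in aggressive II, against -0.13, -0.061 and -0.079 in neutral I and 0.040, 0.11 and -0.010 in neutral II. Aggressive II overlapped with both neutral populations in each subunit.

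**Figure D3:**
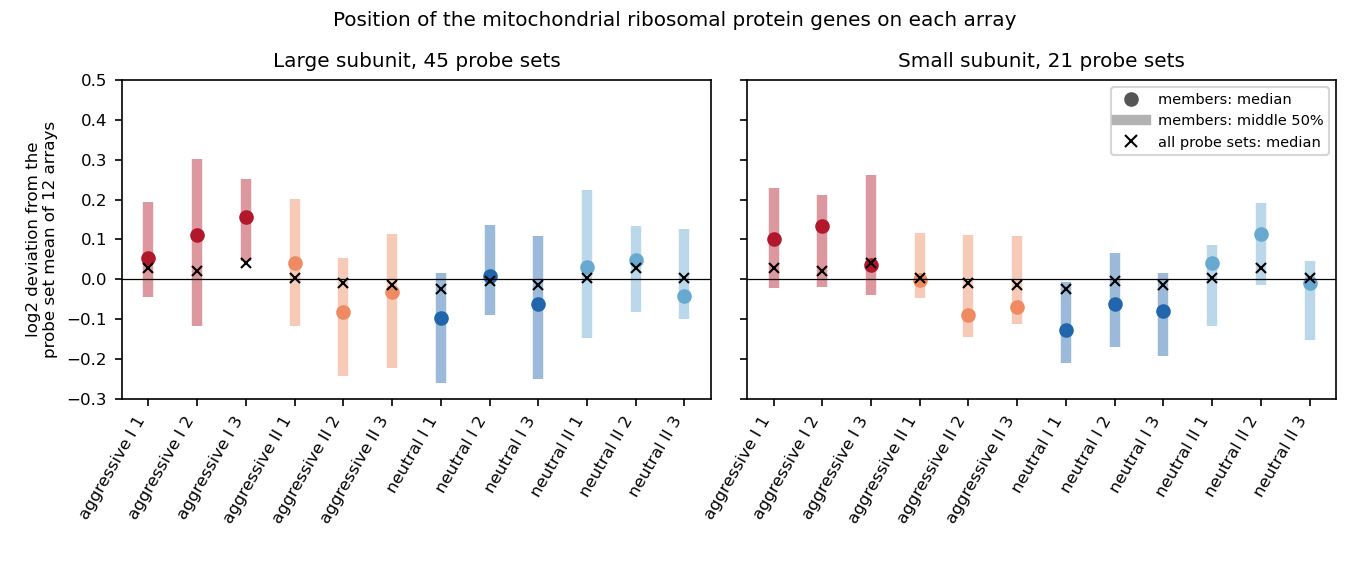
Deviation of the members from their own means over 12 arrays (y axis, log2) on each array, with points for the median, bars for the middle 50% and crosses for the median of all probe sets. Large subunit medians are 0.053 to 0.16 on the aggressive I arrays and at most 0.049 on the other 9. Small subunit medians overlap, with 0.035 to 0.13 on the aggressive I arrays and 0.11 on neutral II array 2.

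Pair by pair, the median log2 difference of the large subunit was 0.15 for aggressive I minus neutral I (35 of 45 above 0) and 0.062 for aggressive I minus neutral II, but -0.016 for aggressive II minus neutral I and -0.070 for aggressive II minus neutral II. Small subunit medians were 0.20 (16 of 21 above 0), 0.084, 0.031 and -0.0072 in the same order of pairs. Over all probe sets the medians were 0.042, 0.026, 0.0050 and -0.013. The pairs share arrays and are not independent of each other. Single arrays moved several of these medians. With each array left out in turn, the large subunit ran from 0.085 (without neutral I array 1) to 0.20 for aggressive I minus neutral I and from 0.039 (without neutral II array 3) to 0.098 (without neutral II array 1) for aggressive I minus neutral II. For aggressive II minus neutral I it ran from -0.023 to 0.069 and was above 0 without aggressive II array 2 or 3 or neutral I array 2 or 3. For aggressive II minus neutral II it ran from -0.070 to 0.0004 (without neutral II array 1). The small subunit ran from 0.15 to 0.23, 0.067 to 0.12, 0.012 (without aggressive II array 1) to 0.070 (without neutral I array 2) and -0.082 (without neutral II array 3) to 0.0042 (without neutral II array 2) in the order of pairs above. In each of them 0 members passed, where 0.15%, 0.308%, 0.122% and 0.301% of all probe sets did. Members with an unadjusted p under 0.05 numbered 10, 4, 3 and 3 of 66 (15.2%, 6.06%, 4.55% and 4.55%), beside 9.48%, 9.32%, 6.76% and 7.32% of all probe sets.

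The regime medians rested on single populations. Without aggressive I the median was -0.035 for the large and -0.011 for the small subunit, and without aggressive II 0.14 and 0.12. Leaving out neutral I gave -0.028 for the large subunit, and leaving out neutral I array 1 alone gave -0.0021. The I pair and the II pair were formed by the numbers in the sample titles and have no array in common. They differed in the same direction for 30 of 66 members, beside 49.1% of all probe sets.

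Whether the difference between regimes was itself unequal in the pairs was tested as an interaction. The result depends on pairing the populations by their title numbers, and the other pairing was not tested. Of the members 0 passed (0.2% of all probe sets did), and 11 of 66 (16.7%) had an unadjusted p under 0.05, beside 8.71% of all. The smallest p was that of mRpS33 (I pair minus II pair 0.43, SE 0.15, adjusted p = 0.47). Of the 66 members, 53 (80.3%) had the more positive difference in the I pair, beside 55.6% of all probe sets. That share was 83.3% for nuclear-encoded oxidative phosphorylation subunits, 96.8% for cytosolic ribosomal proteins and 62.5% for mitochondrial translation factors. The shares of these groups with an unadjusted p under 0.05 were 18.2%, 6.45% and 12.5%.

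Within regimes the median log2 difference of aggressive I minus aggressive II was 0.16 for the large subunit and 0.056 for the small subunit, beside 0.038 over all probe sets. Of the members 0 passed (0.193% of all did), and 7 (10.6%) had an unadjusted p under 0.05, beside 9.6% of all. Neutral I minus neutral II gave medians of -0.072 for the large and -0.092 for the small subunit. Over all probe sets it was -0.023, and over those above the same percentile -0.042. Again 0 members passed (0.115% of all did), and 2 (3.03%) had an unadjusted p under 0.05, beside 6.64% of all. With single arrays left out, the small subunit median of aggressive I minus aggressive II ran from 0.056 to 0.16 (without aggressive II array 2), and that of the large subunit from 0.11 to 0.17. For neutral I minus neutral II the small subunit ran from -0.15 (without neutral II array 3) to -0.026 (without neutral I array 1), and the large subunit from -0.11 (without neutral II array 1) to -0.034 (without neutral I array 1). mRpL39 and mRpL15, of the large subunit, are examples chosen after their values were seen. mRpL39, a mitochondria-specific protein, had intensities of 1380.3, 1388 and 1626 in aggressive I, against 2657, 2268 and 2084 in aggressive II, with no overlap (log2 difference -0.59, SE 0.19, adjusted p = 0.343). mRpL15, of bacterial type, had 3002, 4523 and 2592 in aggressive I, against 2533, 2163 and 1971 in aggressive II (log2 difference 0.60, SE 0.23, adjusted p = 0.434). These populations did not overlap either, and the direction was the opposite one.

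Signs of the RNA and of other tissues also varied between populations. The mean log2 intensity of the 3 control probe sets for 18S ribosomal RNA was 12.69, 14.34 and 12.75 in aggressive I and 11.79, 11.80 and 11.93 in aggressive II, against 12.08, 12.16 and 11.92 in neutral I and 11.56, 12.97 and 12.28 in neutral II. The ratio of 3′ to 5′ GAPDH signal, a measure of how complete the labelled RNA was, averaged 4.69 (aggressive I) and 4.07 (aggressive II), beside 4.13 (neutral I) and 3.56 (neutral II). The same ratio for eIF-4a averaged 3.72 (aggressive I) and 3.20 (aggressive II), beside 3.79 (neutral I) and 2.93 (neutral II). The 2 genes ordered aggressive I and neutral I differently, and both put aggressive II below these and neutral II lowest. Muscle markers (7 of 10 listed genes, 8 probe sets) summed to 74794 to 84199 on aggressive arrays and 68434 to 74878 on neutral arrays. Of the 8 probe sets 5 were above 0 between regimes and 3 below (median log2 difference 0.14, from -0.27 to 0.81). The gene of 1 of them, the myosin light chain Mlc1, passed (log2 difference 0.46, limma adjusted p = 0.0458), but not with any single array left out (limma adjusted p = 0.0626 to 0.13) or with 1 mean per population (limma adjusted p = 0.826). Over all 27 alternatives its limma adjusted p ran from 0.000986 to 0.826. Head fat body markers (4 of 5 listed genes) summed to 126146 to 134604 in aggressive I and 67500 to 74922 in aggressive II, against 74640 to 86958 in neutral I and 163696 to 172182 in neutral II. The 4 probe sets did not all go the way of their sum. In aggressive I minus aggressive II 2 were above 0 and 2 below, and in aggressive II minus neutral I 3 were above 0 and 1 below. Neuron markers (4 of 5 listed genes) summed to 14042 to 18296 on aggressive arrays and 14680 to 17825 on neutral arrays, and glia markers (3 of 4 listed genes) to 56240 to 66813 and 55926 to 62883. The part of these in the position of the members was not tested.

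Genes that work beside the mitochondrial ribosome gave no call between regimes either. Of 66 probe sets for nuclear-encoded oxidative phosphorylation subunits, the partners of the proteins this ribosome makes, 52 were above 0 (median log2 difference 0.11). Of 31 for cytosolic ribosomal proteins, 29 were above 0 (median 0.12), with 0 passing in each. Of all probe sets 53.1% were above 0 and 0.0716% passed. The cytosolic median deviation from each probe set's own mean was 0.11, 0.12 and 0.15 in aggressive I. It was 0.11, 0.034 and -0.16 in aggressive II, -0.21, -0.073 and -0.020 in neutral I and -0.0022, -0.0047 and -0.073 in neutral II. ATPsynCF6, a subunit of the ATP synthase, had the smallest p of the oxidative phosphorylation subunits, with a difference of 0.20 (SE 0.081, adjusted p = 0.695). Whether the median differences of these groups between regimes differ from those of the mitochondrial ribosome was not tested. For aggressive I minus neutral I the median was 0.26 for oxidative phosphorylation and 0.24 for cytosolic ribosomal proteins. Beside these it was 0.15 for the large and 0.20 for the small mitochondrial subunit. For aggressive II minus neutral II the same medians were -0.024, 0.011, -0.070 and -0.0072, in that order. At an unadjusted p under 0.05, 29 of the 66 oxidative phosphorylation probe sets (43.9%) were higher in aggressive I than in neutral I, with 0 passing. That share was 19.4% for cytosolic ribosomal proteins and 15.2% for the members. Of all 13966 probe sets, 840 were higher at this p, and 9.48% had such a p in either direction. In either direction, oxidative phosphorylation had 9.09% in aggressive I minus neutral II (4 higher in aggressive I, 2 lower). In aggressive II minus either neutral population it had 4.55%. These were 3 higher in aggressive II against neutral I, and 1 higher and 2 lower against neutral II.

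**Figure D4:**
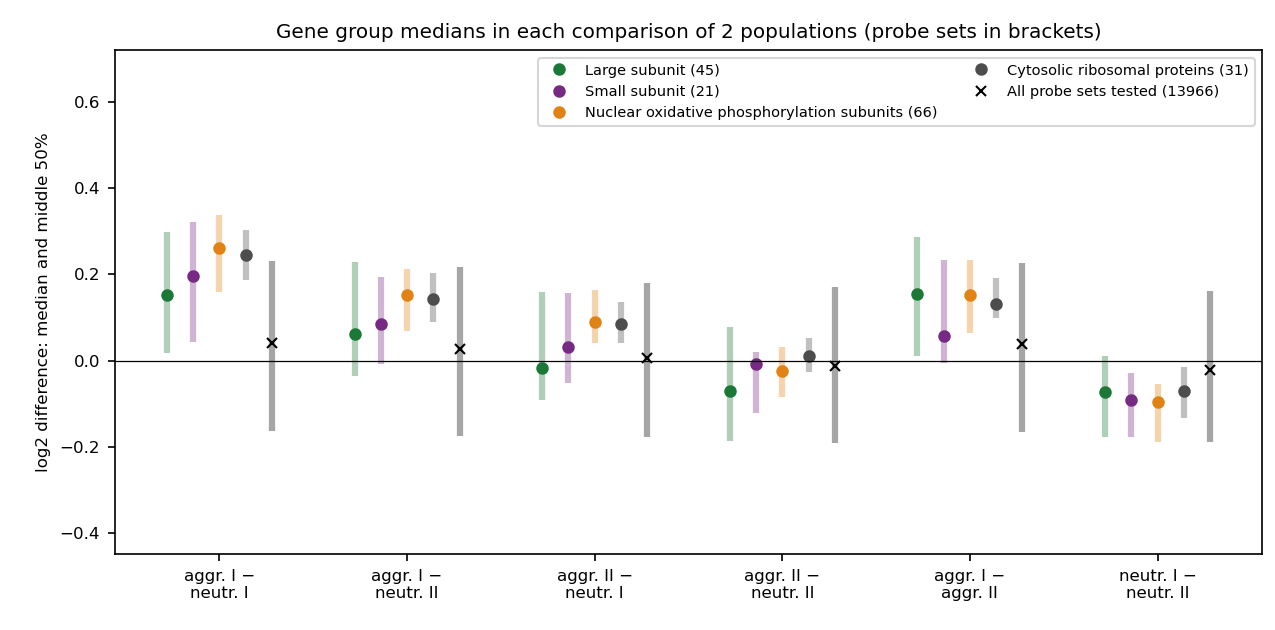
Median log2 difference (y axis) of 5 groups of probe sets in each comparison of 2 populations, with bars for the middle 50%. The 4 gene groups lie above the cross of all probe sets in aggressive I minus neutral I, at 0.15 to 0.26, and close to 0 in aggressive II minus neutral II, at -0.070 to 0.011.

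Mitochondrial translation factors (8 probe sets) had a median log2 difference of 0.070 with 7 above 0. mEFTu2, an elongation factor that delivers transfer RNA, was at 0.18 (SE 0.13, adjusted p = 0.84). Its mean intensity by population was 4511 ± 442.0 (aggressive I) and 3783 ± 477.3 (aggressive II), beside 4179 ± 124.4 (neutral I) and 3220.2 ± 168.6 (neutral II), with SD over 3 arrays. The initiation factor mIF3 was at 0.33 (SE 0.30), and mEFG1, an elongation factor of translocation, at 0.12 (SE 0.18).

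The 15 probe sets for mitochondrial aminoacyl-tRNA synthetases, which charge transfer RNA for this ribosome, had a median log2 difference of 0.012 with 8 above 0. GluRS-m, LeuRS-m and MetRS-m had the smallest p, with differences of 0.54 (SE 0.33), -0.16 (SE 0.12) and 0.20 (SE 0.17). GluRS-m was dim, with mean intensities of 204.6 (SD 160.6) in aggressive I and 106 in aggressive II. Its means were 89.6 in neutral I and 42.3 in neutral II. A second probe set of MetRS-m was at 0.15 (SE 0.36). Factors of mitochondrial transcription and RNA handling (8 probe sets, median 0.098, 5 above 0) included the polymerase PolrMT at 0.13 (SE 0.097), the termination factor mTTF at 0.26 (SE 0.16) and the RNA-binding protein bsf at 0.20 (SE 0.20). Import translocases (12 probe sets) had a median of 0.069 with 8 above 0, and Tom20, a receptor of the outer membrane, was at 0.096 (SE 0.099). The small subunit proteins bonsai and tko, which do not carry the mRp name, were at 0.082 (SE 0.091) and -0.11 (SE 0.41). Of the probe sets of these 5 groups 0 passed, and 0 had an unadjusted p under 0.05 between regimes.

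The SD of log2 intensity within populations ran from 0.058 for mRpS33 to 0.88 for mRpS18B, with a median of 0.21 over the 66 members, beside 0.22 over all probe sets above the 40th percentile of mean intensity. Members moved together over the 12 arrays only weakly. The mean correlation between pairs of members was 0.094, beside 0.014 between probe sets above the same percentile, and the median correlation of members within populations was 0.035, all given as descriptions over arrays that share scaling.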

How the data were processed

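Heads of 4 populations were measured on 12 single-colour Affymetrix arrays, grouped by sample title. The deposited values are MAS5 intensities, per the labels and the submitters' processing notes. In the deposited table the mean of each array after trimming 2% at each end is 2500. The lowest intensity is 2.2, and no count or depth lies behind an array value, so the number of arrays limits the precision.

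Of 14010 probe sets, 44 controls were left out and 13966 were tested without a filter. The platform annotation gave 12443 a single gene, 327 several and 1196 none. Intensities were raised by 94.6 (their 10th percentile), put on the log2 scale and centred on each array's median, so every fold is on that scale and understates the change of dim probe sets. limma 3.58.1 in R 4.3.3 compared the regimes with population as a random block (consensus correlation 0.011). Differences among populations, pairs and the interaction were fitted on fixed population means. P-values were adjusted by Benjamini-Hochberg over all 13966 probe sets, with a threshold of 0.05. The fit was tested on simulated data with 200 of 13966 probe sets changed and no difference between populations of a regime. Of changes of log2 0.5, the regime fit recovered 22% and the F test 0%. At log2 1 they recovered 65% and 48.5%, and 16 of the 146 regime calls were false.

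The members and lists were chosen with earlier results of these data known. Named members are the 6 with the smallest regime p in each subunit, the 6 with the smallest p of the F test, and genes with more than 1 probe set; other members are given to complete their set. Related lists name up to 3 with the smallest p. The classes of proteins follow their numbers. Alternatives changed the pseudocount, filter, normalization, variance model, block, probe set per gene and the arrays or populations included. Replicate numbers did not pair the arrays. A search of promoters was planned and not run, because no sequence was used here.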

Additional observations from a re-analysis of the deposited data

How the results depend on the processing

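Of the members, 0 were called between regimes under all 27 alternatives, and 0 under all 21 alternatives of each other comparison, except 1 (mRpL43, aggressive I minus neutral II) with a trended and robust variance. The count of all probe sets called between regimes, 10, was 16 with the filter, 36 with a trended and robust variance, 5 with the replicate block, 36 with fixed population means and 0 with 1 mean per population (limma; 767 at an unadjusted p under 0.05). It was 42 without aggressive I, 44 without aggressive II, 23 without neutral I and 2 without neutral II. Dropping both aggressive I array 2 and neutral I array 3, an alternative chosen after seeing the data because they correlated least with the others, gave 3, and leaving out single arrays gave 3 to 10. The large subunit median of 0.026 was -0.035 without aggressive I, 0.14 without aggressive II, -0.028 without neutral I, and -0.0021 to 0.062 without single arrays. The small subunit median of 0.056 was -0.011 without aggressive I, 0.12 without aggressive II, 0.13 without neutral II, and 0.0011 to 0.093 without single arrays. The difference of mRpS33 was -0.036 without aggressive I. For the dimmer probe set of mRpL12 it was 0.17 without aggressive II, 0.16 without neutral I and -0.40 to 0.048 without single arrays. For the brighter one it was 0.12 without aggressive II and -0.12 to 0.036 without single arrays, and for the dimmer probe set of mRpL11 -0.013 to 0.16. The cause was not tested. Same-numbered arrays of different populations correlated at -0.057 to 0.032, and 3 of 12 arrays correlated best with their own number, so the numbers were not read as pairs. With the replicate block 0 members were called. Precision is limited by 2 populations per regime and 3 arrays per population.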
